A study of Mus musculus with 3 samples.

Results

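In the mouse forelimb bud at embryonic day 9.5, 10 genes of the WNT pathway were followed across cell classes. They are 5 ligand genes (Wnt2, Wnt3, Wnt5a, Wnt6 and Wnt7a), 2 genes of secreted inhibitors (Dkk1 and Dkk2) and 3 feedback targets (Axin2, Nkd1 and Lef1). All 10 were chosen by symbol, and all 10 were found among the 31053 genes of each matrix. The mutant embryos carried a floxed Esco2 allele on both chromosomes together with 1 copy of a Prrx1-Cre transgene (Esco2fl/fl;Prrx1-CreTg/0). The control embryos carried the same floxed alleles without the transgene (Esco2fl/fl), so both groups share the floxed allele and differ in Cre. Esco2 encodes an acetyltransferase that acts on cohesin, and Prrx1-Cre is active in limb bud mesenchyme, so the deletion is directed to that tissue and not to the ectoderm or the endothelium. Droplet single-cell RNA sequencing of 2 mutant libraries and 1 control library was used here. Per the series' design text each genotype had 3 replicates, and a replicate pooled 6 limb buds. No source read for this work names the litters of the replicates. A p-value here rests on the spread between the 2 mutant libraries, pooled over genes, since the single control adds none. Part of that spread may be technical.

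WNT proteins are secreted, lipid-modified ligands that bind Frizzled receptors. In the canonical branch they stabilise β-catenin, which enters the nucleus and acts with TCF and LEF proteins on target genes. DKK proteins block the LRP co-receptors, while AXIN2 and NKD1 are made in response to the signal and dampen it inside the cell, so their transcripts are commonly read as a record of signalling. In the limb bud, WNT3 in the ectoderm is needed for the apical ectodermal ridge, WNT7A from the dorsal ectoderm patterns the underlying mesenchyme, and WNT5A drives distal outgrowth through a non-canonical branch.

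Cells were sorted into classes by a score over marker genes, none of which is one of the 10. The gate placed 1122 cells of mutant 1, 1970 cells of mutant 2 and 990 cells of the control in limb mesenchyme. Their share of all kept cells was 31.2% and 42.1% in the mutants and 24.4% in the control, although the labels describe all of the material as mesenchymal limb buds. Ectoderm held 423 and 278 cells in the mutants and 329 cells in the control, endothelium 421 and 447 cells in the mutants and 599 cells in the control, and flank mesoderm 57 and 69 cells in the mutants and 98 cells in the control. Of markers that the gate did not use, 9 endothelial ones were concentrated in endothelium, at 2232 and 2455 CPM in the mutants and 2437 CPM in the control. The 5 mesenchyme ones had 859 and 859 CPM in the mutants and 790 CPM in the control in mesenchyme. In flank they still had 567 and 515 CPM in the mutants and 500 CPM in the control. The 5 erythroid ones were found in all 4 classes, with 1360 and 1494 CPM in the mutants and 1032 CPM in the control in endothelium. Here CPM is the number of unique molecular identifiers (UMIs) per 1000000 UMIs of the class and library. Some ectoderm markers were also found in the flank class. There the 10 ectoderm markers that the gate did not use summed to 952 and 1262 CPM in the mutants and 889 CPM in the control, nearly all from Krt8, Krt18 and Dsp. In ectoderm the same 10 summed to less, at 692 and 761 CPM in the mutants and 609 CPM in the control. Of the 10, 5 and 3 had 0 UMIs in flank of the mutants and 4 in flank of the control. UMIs of the Cre transgene numbered 56 in mutant 1 mesenchyme, 127 in mutant 2 mesenchyme and 0 in control mesenchyme. In ectoderm they numbered 0 and 1 in the mutants and 0 in the control. Esco2 itself stood at 22.9 and 21.7 CPM in the mutants and 31.7 CPM in the control in mesenchyme, and no source states if its counted reads lie within the deleted part. Between 65 and 117 barcodes were shared by a pair of libraries, of which at most 19 passed the filters in both. Cells with a high level of 6 p53 target genes made up 15.4% of mutant 1 mesenchyme, 11.8% of mutant 2 mesenchyme and, by the way the limit was set, 1.01% of control mesenchyme. Mesenchyme cells had a median of 33636 and 51047.5 UMIs in the mutants and 26897 UMIs in the control.

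The class that held the transcripts differed from gene to gene. Ectoderm held most UMIs of 3 ligand genes in every library. For Wnt3 the ectoderm held 89.3% of the UMIs in mutant 1, 73.0% in mutant 2 and 92.3% in the control. In ectoderm Wnt6 had 93.9% and 69.6% of its UMIs in the mutants and 87.9% in the control, and Wnt7a 88.0% and 60.9% in the mutants and 93.1% in the control. For these 3 genes mutant 2 had the lowest share, and its coelomic cells, the lining of the body cavity, held 3.29%, 14.1% and 16.3% of their UMIs. Mesenchyme held most UMIs of Dkk1 (72.3% in mutant 1, 81.5% in mutant 2 and 61.1% in the control), of Axin2 (62.2% and 72.9% in the mutants and 52.6% in the control), of Nkd1 (60.5% and 63.9% in the mutants and 57.2% in the control) and of Lef1 (62.0% and 68.1% in the mutants and 59.0% in the control). These 4 shares were higher in both mutants, as was the share of kept cells in the mesenchyme class. Wnt5a was split, and its share in mesenchyme was 39.4% and 59.1% in the mutants and 31.2% in the control. Its share in ectoderm was 45.5% and 21.1% in the mutants and 44.0% in the control. Wnt2 and Dkk2 came mainly from outside both tissues, and cells that the gate assigned to no class held 39.9% and 41.4% of the Wnt2 UMIs in the mutants and 47.6% in the control.

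**Figure D1:**
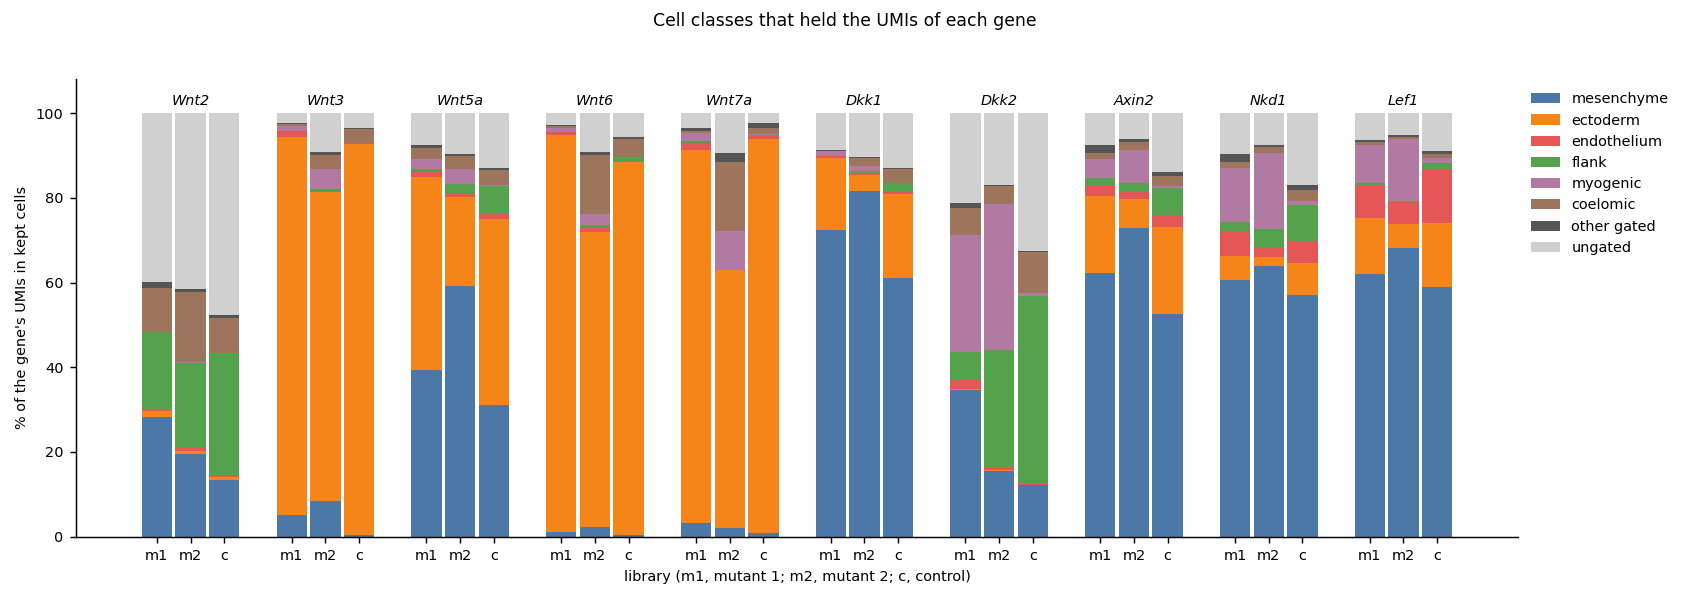
Share of each gene's UMIs, in percent of its UMIs in all kept cells (vertical axis), by the cell class that held them (colours), with 1 bar for mutant 1, mutant 2 and the control for each gene. Wnt3, Wnt6 and Wnt7a are mostly ectodermal, Dkk1, Axin2, Nkd1 and Lef1 mostly mesenchymal, and 27.7% and 34.3% of the Dkk2 UMIs of the mutants came from myogenic cells, against 0.671% in the control.

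The 3 ectodermal ligands had their highest level in ectoderm, with no overlap with any of the other 3 classes. The range over the 3 libraries in ectoderm was 254 to 684 CPM for Wnt6, 45.5 to 54.1 CPM for Wnt3 and 37.6 to 66.8 CPM for Wnt7a. Wnt7a stayed under 1 CPM in mesenchyme, endothelium and flank of every library, and Wnt3 did so everywhere but in the flank of mutant 2, where 3 UMIs gave 1.35 CPM. Wnt2 was ordered from flank (205 to 251 CPM) through mesenchyme (4.53 to 16.8 CPM) and ectoderm (2.05 to 2.90 CPM) to endothelium (0.381 to 0.571 CPM), and no neighbours in that order overlapped. Wnt5a was highest in ectoderm, between 171 and 236 CPM, and its mesenchymal range of 46.5 to 52.9 CPM lay within its flank range of 21.6 to 92.4 CPM. Dkk2 was highest in flank, at 84.6 to 810 CPM, followed by mesenchyme at 10.4 to 19.7 CPM. Dkk1 ranged from 19.4 to 35.2 CPM in mesenchyme and from 11.5 to 29.9 CPM in ectoderm, which overlapped. The feedback targets were present in all 4 classes, and Lef1 had an overlapping range in mesenchyme (360 to 538 CPM) and ectoderm (353 to 378 CPM), then 107 to 116 CPM in endothelium and 27.8 to 87.6 CPM in flank. Axin2 was lowest in endothelium, at 3.08 to 4.53 CPM, as was Nkd1 at 4.90 to 10.0 CPM.

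**Figure D2:**
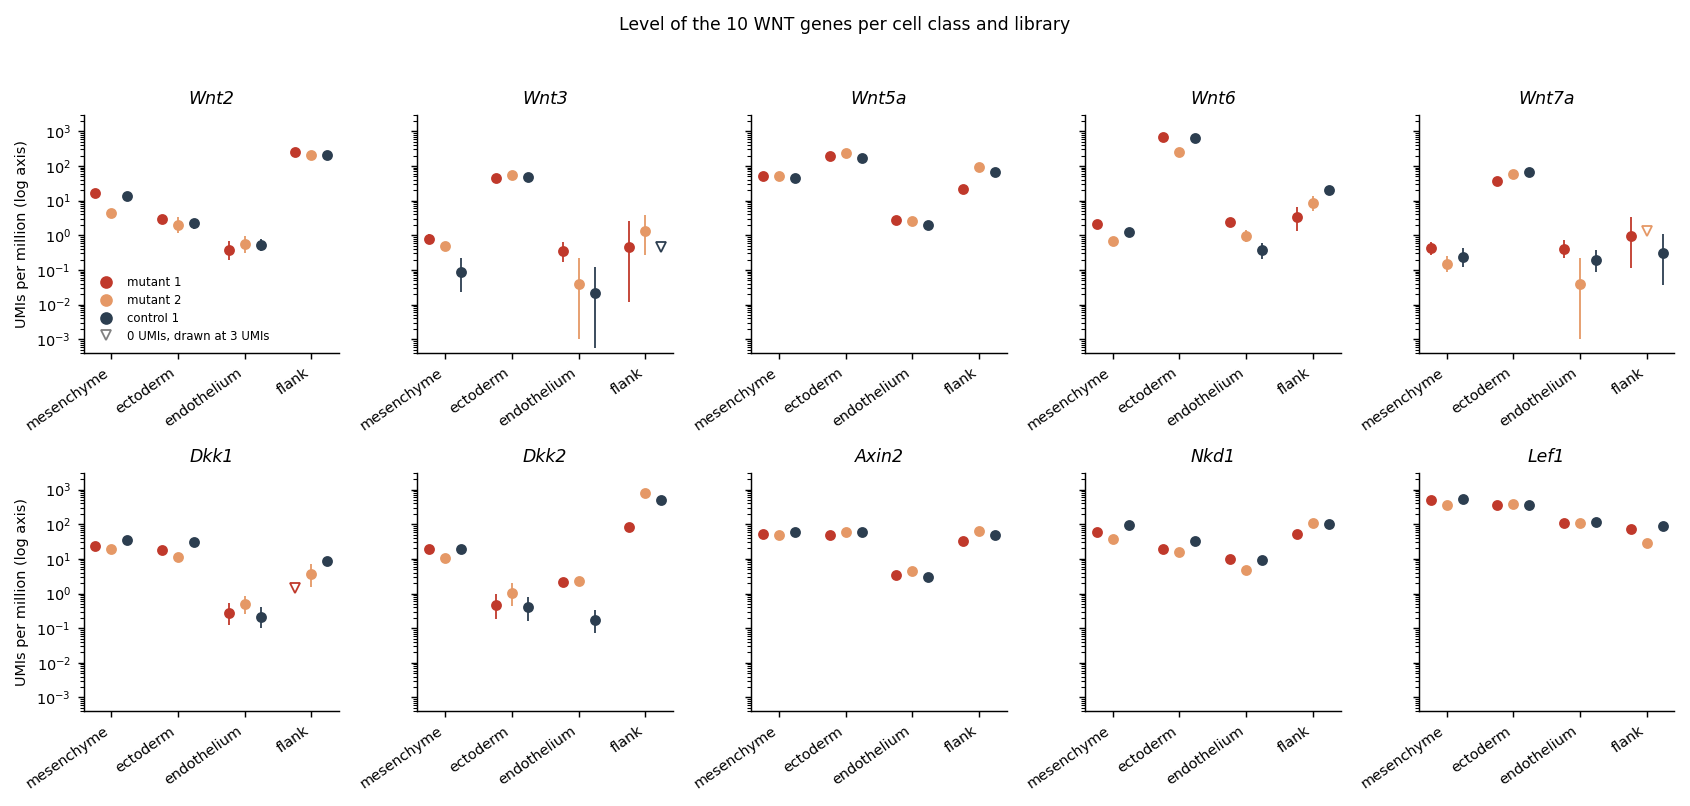
Level of each gene in CPM on a log axis, by cell class, for mutant 1, mutant 2 and the control (control 1 in the legend), with exact Poisson 95% intervals that cover counting error only. Open triangles stand for 0 UMIs and are drawn at the level of 3 UMIs. Wnt3, Wnt6 and Wnt7a are lower by more than an order of magnitude in the other 3 classes than in ectoderm, and Lef1 lies between 353 and 538 CPM in both mesenchyme and ectoderm.

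The ectodermal ligand genes did not pass the test in the mutants, and a test for each of the 4 classes asked the same of every gene above a mean of 5 CPM. In ectoderm 10652 genes were tested with edgeR's quasi-likelihood fit and Benjamini-Hochberg adjustment, and 0% were called higher and 0% lower at an adjusted p under 0.05. The lowest adjusted p there was 0.246, and 1201 genes had an unadjusted p under 0.05. Wnt3 (ENSMUSG00000000125, GRCm38 chr11:103774150-103817957, plus strand) had 45.5 CPM in mutant 1, 54.1 CPM in mutant 2 and 48.0 CPM in the control. The control lay between the mutants, and the log2 difference was -0.04 (SE 0.17), or 0.050 without TMM factors and 0.081 after thinning. Wnt6 (ENSMUSG00000033227, chr1:74771892-74785322, plus strand) had 684 CPM in mutant 1, 254 CPM in mutant 2 and 629 CPM in the control. Mutant 2 stood apart from the other libraries, and the log2 difference of -0.50 (SE 0.55, adjusted p = 0.735) joins 0.05 for mutant 1 and -1.41 for mutant 2. Ectoderm cells with at least 10000 UMIs were thinned to 10000 UMIs each. This left out 46 and 23 cells in the mutants and 50 in the control. Wnt6 was found in 99.2% and 87.5% of the thinned cells in the mutants and 98.6% in the control. The lower level of mutant 2 was thus not a loss of the transcript from most of these cells.

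Wnt7a (ENSMUSG00000030093, chr6:91363981-91411363, minus strand) had 37.6 CPM in mutant 1 ectoderm and 58.4 CPM in mutant 2 ectoderm, against 66.8 CPM in the control. Both mutants lay below the control, but the difference was not called (log2 -0.58, SE 0.27, adjusted p = 0.481). Within ectoderm the values were uneven between ridge cells, which carry apical ectodermal ridge markers such as Fgf8 and Sp8, and the other cells. In ridge cells Wnt7a had 21.8 and 19.7 CPM in the mutants, from 112 and 45 UMIs, against 67.5 CPM in the control, from 600 UMIs. In the other ectoderm cells it had 45.7 and 74.6 CPM in the mutants, against 66.2 CPM in the control. The ridge class held 119 and 88 cells in the mutants and 127 cells in the control, and these subdivisions were not tested.

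Wnt5a (ENSMUSG00000021994, chr14:28504750-28527448, plus strand) was the only tested member with a higher value in both mutants in both tissues. In ectoderm it had 197 and 236 CPM in the mutants, against 171 CPM in the control, a log2 difference of 0.25 (SE 0.15, adjusted p = 0.555) that was not called. In mesenchyme it had 52.3 and 52.9 CPM in the mutants, against 46.5 CPM in the control, with a log2 difference of 0.12 (SE 0.30, adjusted p = 1.00) that was not called either. The share of thinned mesenchyme cells with a Wnt5a UMI was 41.4% in mutant 1, 40.1% in mutant 2 and 29.97% in the control. In erythroid cells, which mark the level of free RNA, it was 0.333% and 1.56% in the mutants and 0.252% in the control. Within ectoderm the ridge cells had 331 and 478 CPM in the mutants and 250 CPM in the control and the other cells 128 and 135 CPM in the mutants and 91.9 CPM in the control. Wnt5a was thus higher in ridge cells in each library, and both mutants were above the control in both sets. By cluster the mutants lay on both sides of the control. Ectoderm cells of cluster 16 (75 and 69 in the mutants and 32 in the control) had 432 and 609 CPM in the mutants, against 441 CPM in the control. Those of cluster 7 had 158 and 146 CPM in the mutants, against 156 CPM in the control.

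**Figure D3:**
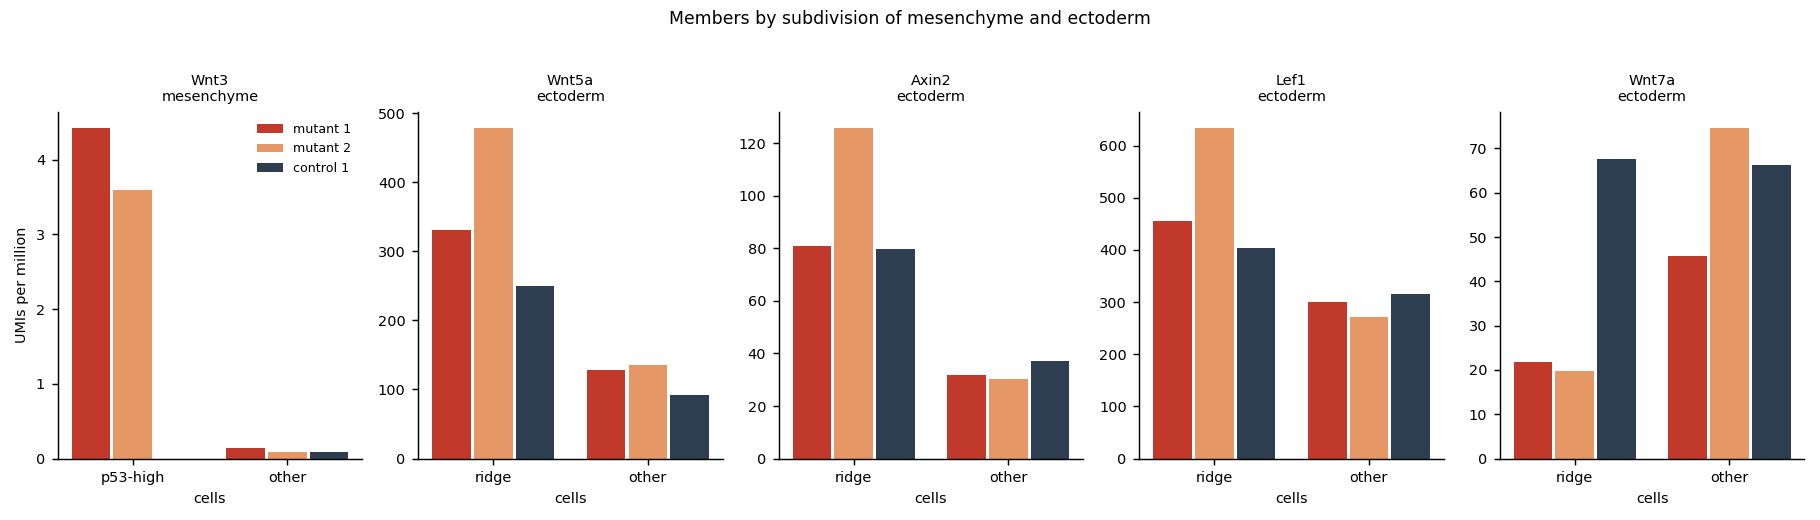
Level in CPM of Wnt3 in p53-high and other mesenchyme cells and of Wnt5a, Axin2, Lef1 and Wnt7a in ridge and other ectoderm cells, with 1 bar for mutant 1, mutant 2 and the control. Wnt3 reaches 4.42 and 3.60 CPM in p53-high mutant cells, its missing bar in control stands for 0 UMIs in 10 shallow cells, and Wnt7a in ridge cells is near 20 CPM in both mutants and 67.5 CPM in the control.

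Wnt2 (ENSMUSG00000010797, chr6:17988940-18030585, minus strand), a ligand gene expressed in lateral plate mesoderm, had 16.8 CPM in mutant 1 mesenchyme, 4.53 CPM in mutant 2 mesenchyme and 13.5 CPM in control mesenchyme. The mutants lay on both sides of the control, with log2 differences of 0.22 and -1.59 and a joint value of -0.43 (SE 0.27, adjusted p = 1.00). The 8 flank markers, of which the gate used 7, summed to 40.1 and 16.8 CPM in the mutants and 45.4 CPM in the control over mesenchyme cells, with none of the 8 at 0 in any library. Like Wnt2 they were lowest in mutant 2, but in mutant 1 they lay below the control while Wnt2 lay above it. Their part in the Wnt2 values was not tested. In flank itself Wnt2 had 251 and 205 CPM in the mutants, against 206 CPM in the control, and 83.3% and 79.7% of thinned flank cells in the mutants and 80.5% in the control held a UMI of it.

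Wnt3 was at the edge of detection in mesenchyme, and its few UMIs there were unevenly distributed. Mutant 1 mesenchyme held 40 UMIs (0.808 CPM) in 28 cells, mutant 2 mesenchyme 48 UMIs (0.493 CPM) in 28 cells and control mesenchyme 4 UMIs (0.0867 CPM) in 4 cells. The gene was below the limit of 5 CPM and was not tested within mesenchyme. Of the UMIs of the mutants, 34 of 40 and 41 of 48 lay in p53-high cells, which were 173 of 1122 and 233 of 1970 cells. The level in p53-high cells was 4.42 CPM in mutant 1 (exact Poisson 95% interval 3.06 to 6.18) and 3.60 CPM in mutant 2 (2.58 to 4.88). In the remaining mesenchyme it was 0.143 CPM in mutant 1, 0.0813 CPM in mutant 2 and 0.0870 CPM in the control. The 10 p53-high cells of the control had a median of 1758 UMIs and no Wnt3 UMI, which allows up to 18.0 CPM at 3 counts, so they set no limit near the mutant level. Wnt6 was also higher in p53-high mesenchyme cells, at 3.77 and 1.49 CPM in the mutants against 1.86 and 0.581 CPM in their other cells. Wnt7a was likewise higher, from 4 and 5 UMIs, while Wnt2, Wnt5a, Dkk1, Dkk2, Axin2 and Lef1 were lower. Mesenchyme cells of cluster 12 of a joint clustering, which had 0 control cells, held Wnt3 at 5.68 and 4.34 CPM in the mutants. In ectoderm the p53-high cells did not have more Wnt3, with 39.9 and 45.8 CPM in the mutants and 29.1 CPM in the control. The other ectoderm cells had 46.4 and 55.4 CPM in the mutants and 52.1 CPM in the control.

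Ectoderm markers were read in the same mesenchyme cells. Of the 10 markers not used in the gate, St14, a membrane serine protease of epithelia, was raised with Wnt3, at 9.11 and 10.4 CPM in p53-high cells of the mutants and 0.167 and 0.232 CPM in their other cells. The other 9 summed to 11.4 and 7.46 CPM in p53-high cells and to 18.5 and 7.56 CPM in the remaining mesenchyme cells. Their sum was thus no higher where Wnt3 was high in either mutant. It rests mainly on Krt8, Krt18 and Dsp, which were also high in flank. These had 336, 196 and 276 UMIs in mutant 1 mesenchyme and 208, 204 and 260 UMIs in mutant 2 mesenchyme. The sum therefore says little about the rarer ectoderm markers, and the source of the Wnt3 UMIs was not tested. The split by the p53 genes for Wnt3 and the separate look at St14 were made after the values had been seen.

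The secreted inhibitor gene Dkk1 (ENSMUSG00000024868, chr19:30545863-30549665, minus strand) lay below the control in both mutants and in both tissues. In mesenchyme it had 23.0 CPM in mutant 1 and 19.4 CPM in mutant 2, against 35.2 CPM in the control. The log2 difference was -0.79 (SE 0.25), or 0.578 times the control, and it was not called (adjusted p = 0.0868). Among mesenchyme cells with at least 10000 UMIs, each thinned to 10000 UMIs, the difference was -0.06. The share of these cells with a Dkk1 UMI was 10.7% and 11.2% in the mutants and 12.7% in the control. The lower level was thus not seen at equal depth among these cells. Thinning left out 163 and 215 mesenchyme cells of the mutants and 296 of the control. In ectoderm Dkk1 had 17.7 and 11.5 CPM in the mutants, against 29.9 CPM in the control, a log2 difference of -1.10 (SE 0.29) with an unadjusted p of 0.0117 and an adjusted p of 0.408, and of -1.11 after thinning. Within mesenchyme Dkk1 was concentrated in cluster 3, at 45.8 and 39.4 CPM in the mutants and 63.0 CPM in the control, where Wnt2 and Dkk2 also had their highest levels among the 5 clusters with at least 50 cells in each library. p53-high mesenchyme cells of the mutants had 11.97 and 12.2 CPM of Dkk1 and their other cells 24.975 and 20.4 CPM, against 35.3 CPM in the other control cells. In the ectoderm outside the ridge Dkk1 had 15.7 and 9.25 CPM in the mutants, against 37.8 CPM in the control, and in ridge cells 21.4 and 17.0 CPM, against 22.1 CPM in the control.

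Promoters were read because Dkk1 is known as a target of the pathway it inhibits, and because it and the feedback targets share that background. RefSeq promoters of GRCm38.p6, from 250 bases before to 50 bases after an annotated start, were matched for 9 of the 10 genes, and Wnt5a is the one named only. They were searched on both strands for CTTTGA and CTTTGT, the core recognised by TCF and LEF proteins. CTTTGA occurs in 16.0% and CTTTGT in 18.7% of the 32851 promoters of that length. Dkk1 and start number 4 of Lef1 each held 3 matches in all, and 1.14% of promoters hold at least 3. The stretch of 180 bases before each of these starts is shown, 5′ to 3′ on the strand of the gene, with the matches in capitals; TCAAAG and ACAAAG are the same motifs on the other strand.
Dkk1 (chr19:30549497-30549676, minus strand): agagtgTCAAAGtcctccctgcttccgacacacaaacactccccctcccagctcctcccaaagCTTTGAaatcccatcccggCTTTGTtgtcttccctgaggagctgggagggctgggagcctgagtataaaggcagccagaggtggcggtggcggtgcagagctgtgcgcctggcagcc
Lef1, start number 4 (chr3:131156114-131156293, plus strand): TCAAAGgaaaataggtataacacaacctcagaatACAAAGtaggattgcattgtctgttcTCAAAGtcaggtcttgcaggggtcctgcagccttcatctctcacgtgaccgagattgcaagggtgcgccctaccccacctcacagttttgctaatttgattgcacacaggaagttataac
The Dkk1 matches begin 174, 117 and 98 bases before its start, and those of Lef1 begin 180, 146 and 120 bases before that start. Dkk2 and Wnt3 each held 1 CTTTGT. The windows at the listed starts of Axin2, Nkd1, Wnt2, Wnt6 and Wnt7a and at the other starts of Lef1 held neither motif. A match describes letters only, and the counts here do not show which start of Lef1 was used.

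Dkk2 (ENSMUSG00000028031, chr3:132085292-132180304, plus strand), the other inhibitor gene of the family examined, had 19.2 CPM in mutant 1 mesenchyme, 10.4 CPM in mutant 2 mesenchyme and 19.7 CPM in control mesenchyme. Mutant 1 was close to the control and mutant 2 lay below it. The log2 difference of -0.48 (SE 0.27, adjusted p = 1.00) was not called, and with clusters in place of the gate it was called at -0.99 (adjusted p = 0.0223). In flank it had 84.6 CPM in mutant 1 and 810 CPM in mutant 2, against 501 CPM in the control, so the mutants lay on both sides of the control. The flank cells came from different clusters in the 3 libraries. Of them 87.7% in mutant 1 were in cluster 9, 72.5% in mutant 2 were in cluster 19, and the control had 61.2% and 21.4% in these clusters. Within cluster 19 Dkk2 had 1077 CPM in mutant 2 and 1392 CPM in the control, and within cluster 9 it had 74.7 CPM in mutant 1 and 194 CPM in the control.

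Nkd1 (ENSMUSG00000031661, chr8:88521354-88594884, plus strand), which encodes an inhibitor of Dishevelled induced by WNT signalling, was the only member called. It had 60.3 CPM in mutant 1 mesenchyme (2989 UMIs) and 36.6 CPM in mutant 2 mesenchyme (3564 UMIs), against 96.8 CPM in control mesenchyme (4465 UMIs). Both mutants lay well below the control and differed from each other by 0.64 on the log2 scale. The log2 difference of -1.06 (SE 0.29), or 0.479 times the control, was called lower at an adjusted p of 0.0272. Of thinned mesenchyme cells, 40.5% in mutant 1 and 28.8% in mutant 2 had an Nkd1 UMI, against 51.3% in the control. The exact 95% intervals over cells were 37.3% to 43.6%, 26.7% to 31.0% and 47.5% to 55.1%. The 2 mutant intervals did not overlap each other either, and such intervals hold no spread between libraries. The share of erythroid cells with a UMI was 2.33% and 1.33% in the mutants and 2.27% in the control. The call was lost, at an unchanged direction, in 6 of 12 other settings, with adjusted p up to 1 where the prior degrees of freedom of the ectoderm fit were used. Among the 12, the spread shared by all genes repeats the main mesenchyme fit, so its result could not differ. Leaving out mutant 1 gave -1.42 and leaving out mutant 2 gave -0.77, each without a test.

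The Nkd1 level was also read by mesenchyme cluster. In each of the 5 mesenchyme clusters with at least 50 cells of every library, both mutants lay below the control. The values were 82.9 and 71.4 CPM in the mutants against 146 CPM in the control in cluster 4, where Lef1 was also highest, and 58.9 and 33.4 CPM against 96.1 CPM in cluster 1. In cluster 3 they were 47.0 and 22.1 CPM against 90.2 CPM, and in cluster 6 they were 52.0 and 17.5 CPM against 72.8 CPM. In cluster 0 they were 59.2 and 29.4 CPM against 69.3 CPM. That cluster had a median of 1081 UMIs per cell, so its values rest on few Nkd1 UMIs and the gap of mutant 1 there was small. The libraries filled these clusters unequally, since cluster 1 held 18.2% and 43.1% of the mesenchyme cells in the mutants and 15.8% in the control and cluster 6 held 4.99% and 5.99% in the mutants and 29.3% in the control. The clusters are parts of the same 3 libraries and are not replicates. Smaller clusters were mixed. Cluster 9 (18, 4 and 14 cells) had 25.5 and 27.6 CPM in the mutants, against 23.2 CPM in the control. Cluster 14 (28, 22 and 6 cells) had 48.0 and 53.1 CPM in the mutants, against 83.2 CPM in the control. In the mutants, p53-high cells had 60.9 and 36.3 CPM of Nkd1 and the other cells 60.3 and 36.6 CPM, so its level was close in both sets. Outside mesenchyme Nkd1 had 18.6 and 15.8 CPM in mutant ectoderm, against 32.3 CPM in control ectoderm, a log2 difference of -0.99 (SE 0.20, unadjusted p = 0.00394, adjusted p = 0.404). That tissue held at most 1 Cre UMI in any library.

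**Figure D4:**
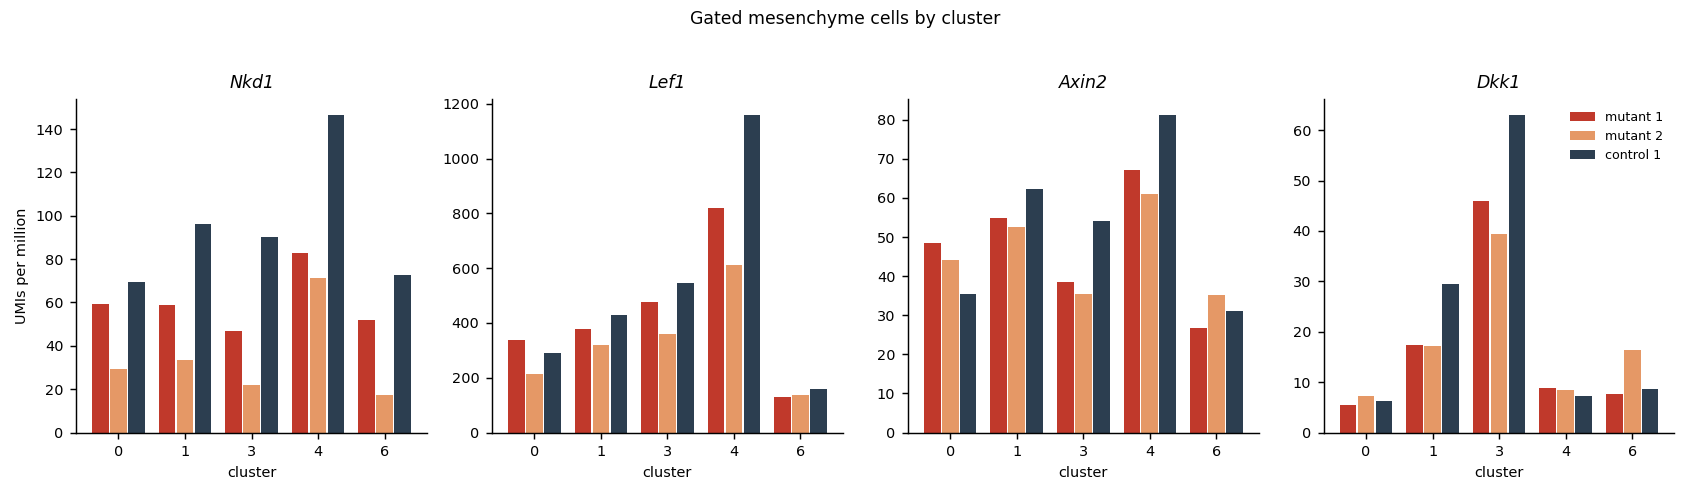
Level in CPM of Nkd1, Lef1, Axin2 and Dkk1 in gated mesenchyme cells (vertical axes start at 0), by the 5 clusters with at least 50 such cells in each library, for mutant 1, mutant 2 and the control. Both mutants lie below the control for Nkd1 in all 5 clusters, for Lef1 in 4, for Axin2 in 3 and for Dkk1 in 2.

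Axin2 (ENSMUSG00000000142, chr11:108920349-108950783, plus strand), which encodes a scaffold of the β-catenin destruction complex, moved less. In mesenchyme it had 50.5 and 49.2 CPM in the mutants, against 57.6 CPM in the control, and the log2 difference of -0.26 (SE 0.29, adjusted p = 1.00) was not called. In ectoderm it had 48.5 and 58.3 CPM in the mutants, against 58.4 CPM in the control (log2 -0.22, SE 0.17, adjusted p = 0.627, and 0.049 after thinning). Ridge cells had more of it than the other ectoderm cells in every library, at 80.8 and 126 CPM in the mutants and 79.7 CPM in the control. The other cells had 31.9 and 30.3 CPM in the mutants and 37.0 CPM in the control. Of thinned mesenchyme cells, 37.5% and 34.2% in the mutants and 39.8% in the control held an Axin2 UMI.

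Lef1 (ENSMUSG00000027985, chr3:131110471-131224356, plus strand) encodes a nuclear partner of β-catenin and is itself induced by the signal in several tissues. It had 501 CPM in mutant 1 mesenchyme and 360 CPM in mutant 2 mesenchyme, against 538 CPM in control mesenchyme, and the log2 difference of -0.38 (SE 0.36, adjusted p = 1.00) was not called. In cluster 4 it had 818 and 612 CPM in the mutants, against 1159 CPM in the control, and both mutants lay below the control in 4 of the 5 clusters. In ectoderm the 3 libraries were close, at 353 and 378 CPM in the mutants and 359 CPM in the control (log2 -0.06, SE 0.12, adjusted p = 0.862, and 0.029 without TMM factors). Ridge cells had 456 and 633 CPM in the mutants and 403 CPM in the control and the other ectoderm cells 300 and 272 CPM in the mutants and 315 CPM in the control, so mutant 2 combined the highest ridge level with the lowest level outside it.

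**Figure D5:**
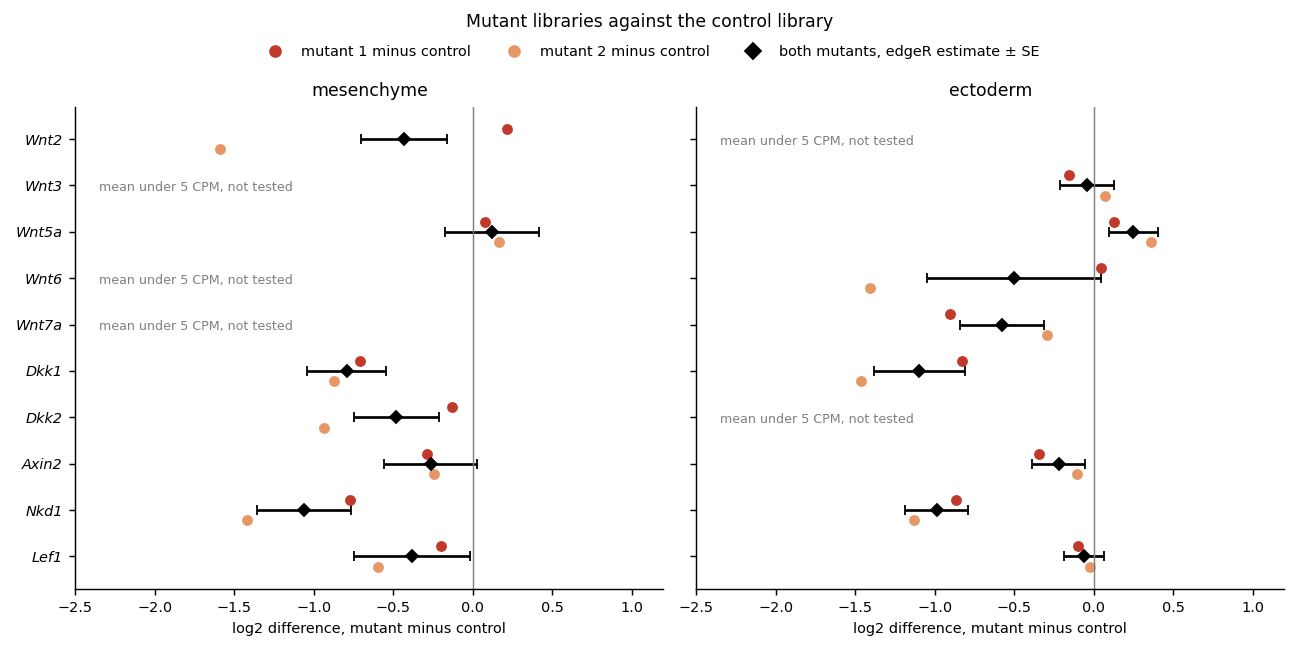
Log2 difference of each mutant library from the control (circles) and edgeR's joint estimate with its standard error (diamonds) for the 10 genes in mesenchyme and ectoderm. Nkd1 and Dkk1 lie below 0 in both mutants and both tissues, Wnt5a lies above 0, and genes with a mean under 5 CPM have no estimate.

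Set against all genes, the members were few. In mesenchyme 10082 genes were tested, of which 0.922% were called higher and 0.516% lower, and 507 had an unadjusted p under 0.05. Of the 7 members tested, 1 was called lower, Nkd1, and 0 were called higher. The other 3 members stayed under 5 CPM. The median log2 difference of the 7 was -0.43, against -0.01 over all genes tested, and both mutants lay below the control for 5 of them and above it for 1. Of 47 other WNT pathway genes tested there, both mutants lay below the control for 6 and above it for 18. The share of all genes with either pattern was not counted, so nothing is read from these counts. In ectoderm 8 members were tested, 0 were called, and their median was -0.36 against 0.00 over all genes. No test was made of these medians, since the genes were chosen with earlier results of these libraries known.

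The mutant effect in mesenchyme was compared with that in ectoderm by an edgeR interaction term. It was called in 1.66% of the 10605 genes tested. Of the 5 members above 5 CPM in both tissues (Wnt5a, Dkk1, Axin2, Nkd1 and Lef1), 0 were called. Wnt3 entered the fit only through its ectoderm level and had 4 control UMIs in mesenchyme, so its fitted difference of 2.76 on the log2 scale is given as a description and no call is read from it. For Nkd1 the effects were alike in size, with a difference of -0.10 (SE 0.30, adjusted p = 1.00), and for Dkk1 the difference was 0.32 (SE 0.29, adjusted p = 1.00). Equal effects are not shown by these values, given their standard errors.

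In endothelium 9752 genes were tested, 0% were called higher and 0% lower, 681 had an unadjusted p under 0.05, and only Nkd1 and Lef1 of the members were above 5 CPM. Lef1 had 107 and 111 CPM in the mutants, against 116 CPM in the control (log2 -0.14, SE 0.10, adjusted p = 0.757). The share of thinned endothelial cells with a Lef1 UMI was 58.9% and 63.5% in the mutants and 57.9% in the control. Erythroid cells were far lower, at 3.49% and 5.11% in the mutants and 3.02% in the control. Nkd1 had 10.0 and 4.90 CPM in the mutants, against 9.05 CPM in the control (log2 -0.31, SE 0.50, adjusted p = 0.890), so only mutant 2 lay below the control. Dkk2, not tested there, had 60 and 57 UMIs in the mutants, against 8 UMIs in the control, or 2.08 and 2.33 CPM against 0.172 CPM. The UMIs lay in 21 and 19 cells in the mutants and 8 cells in the control, and the endothelial cells of cluster 13 had 16.5 and 14.1 CPM in the mutants, against 0.288 CPM in the control. Wnt6 in endothelium was spread unevenly, since 37 of its 70 UMIs in mutant 1 lay in 1 cell.

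In flank 10480 genes were tested, 0% were called higher and 0% lower, and 82 had an unadjusted p under 0.05. Of the 7 members tested there none was called, and the fit rests on 57 and 69 cells in the mutants and 98 cells in the control. Wnt6 had 3.29 and 8.52 CPM in the mutants against 20.5 CPM in the control (log2 -1.78, SE 0.69, adjusted p = 1.00), from 7 and 19 UMIs in the mutants against 135 UMIs in the control, 26 of them in 1 cell. After thinning the Wnt6 difference was -0.55. Wnt5a, Axin2 and Nkd1 lay below the control in mutant 1 and above it in mutant 2, with Nkd1 at 53.6 and 111 CPM in the mutants and 98.99 CPM in the control. Lef1 had 70.5 and 27.8 CPM in the mutants, against 87.6 CPM in the control (log2 -0.87, SE 0.59, adjusted p = 1.00). The cluster make-up of the class, given above for Dkk2, differed between the libraries, and its part in these values was not tested.

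Other genes of the pathway were read from a list of 75. In mesenchyme 47 of them were tested, 0 were called, and 2 had an unadjusted p under 0.05, with a median log2 difference of 0.02. In ectoderm 56 were tested, 0 were called and 7 had an unadjusted p under 0.05. Endothelium had 39 and flank 49 tested genes of the list, with 0 called in each. Among ligands, Wnt5b had 77.8 and 67.8 CPM in mutant mesenchyme, against 66.7 CPM in control mesenchyme (log2 0.07, SE 0.31). Wls, the carrier that WNT ligands need for secretion, had 923 and 819 CPM in mutant ectoderm, against 713 CPM in control ectoderm (log2 0.20, SE 0.15). The receptor gene Ror2, which binds WNT5A, had 247 and 199 CPM in mutant mesenchyme, against 181 CPM in control mesenchyme (log2 0.24, SE 0.36). β-catenin itself, Ctnnb1, had 196 and 205 CPM in mutant mesenchyme, against 199 CPM in control mesenchyme (log2 -0.04, SE 0.35). Bambi, a pseudoreceptor of the BMP pathway that WNT signalling can induce, had 75.8 and 54.9 CPM in mutant mesenchyme, against 99.96 CPM in control mesenchyme (log2 -0.67, SE 0.31, adjusted p = 0.698). Ccnd1 and Apcdd1, listed as targets with Bambi, had log2 differences of 0.07 (SE 0.35) and -0.13 (SE 0.26) in mesenchyme. Frzb, which encodes a soluble WNT antagonist, had 39.7 and 44.6 CPM in mutant mesenchyme, against 27.6 CPM in control mesenchyme (log2 0.56, SE 0.28, adjusted p = 0.937). In ectoderm Wnt7b had 21.5 and 23.2 CPM in the mutants, against 11.8 CPM in the control (log2 0.83, SE 0.20, adjusted p = 0.404).

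The genes whose pattern over the 12 sums of class and library was most like that of a member were found by Pearson's correlation of log2 CPM among 12018 genes. The 12 points share 3 libraries and 4 classes, so the values describe mainly which class a gene belongs to. Wnt5a was nearest to the homeobox gene Msx2 (r = 0.98), and Axin2 was near Msx1 (r = 0.99). Wnt7a was nearest to the ectodermal homeobox gene Dlx3 (r = 0.99), Wnt3 to Fermt1 (r = 0.998), which encodes an integrin activator of epithelia, and Wnt6 to Fam83b and the basal keratin gene Krt14 (r = 0.99 and 0.98). Nkd1 was nearest to the T-box gene Tbx2 (r = 0.96), Dkk1 to Trim32 (r = 0.95), Dkk2 to the fibrillin gene Fbn1 (r = 0.98), Wnt2 to Myrf (r = 0.99) and Lef1 to Safb2 (r = 0.99). Wnt5a, Wnt6, Axin2, Nkd1 and Lef1 overlap other annotated genes, 4 of them with an antisense partner, and no source states if the counting used strand, so some reads of these 5 could belong to the partner.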

How the data were processed

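Per the labels' protocols, limb buds were dissociated with trypsin, frozen, thawed, pooled and loaded for 3′ single-cell libraries. The deposited matrices hold raw UMI counts per gene and barcode, with no normalization. Per the submitters' processing notes, Cell Ranger 7.0.0, Seurat 4.0.0 and the mm10 build were used. The annotation release, the use of intronic reads and the cell calling step are not stated there. The matrices of mutant 1, mutant 2 and the control held 178159788, 225032823 and 202581488 UMIs.

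Cells needed at least 500 genes and under 10% mitochondrial UMIs. Scrublet doublets were removed (90 and 125 in the mutants and 35 in the control), leaving 3596 and 4681 cells in the mutants and 4054 cells in the control. For the gate, each marker's log value per 10000 UMIs was divided by its 99th percentile and capped, markers were averaged, and a class needed a score of at least 0.2 and a lead of 0.1. The gate was set after the data had been seen, with several versions compared, and mesenchyme cells within 0.05 of the limits numbered 114 and 196 in the mutants and 195 in the control. The members and lists were chosen with earlier results of these data known. A p53-high cell exceeded the 99th percentile of control mesenchyme in summed Cdkn1a, Ccng1, Phlda3, Eda2r, Ddit4l and Trp53inp1. Clusters came from Leiden clustering of all libraries together (leidenalg 0.10.2, scanpy 1.11.5).

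UMIs were summed per class and library and tested with edgeR 4.0.16 (TMM factors, quasi-likelihood, mean of at least 5 CPM, adjusted p under 0.05), which was tested on simulated data. Printed CPM values use all UMIs of the class without TMM factors, while log2 differences include them. With 3 libraries the residual degrees of freedom were 1, which treats the single control as varying like the mutants. The prior degrees of freedom were infinite in mesenchyme and 4.10 in ectoderm. In mesenchyme the spread thus came from all genes together and not from a gene's own 2 mutant values. An exact permutation of these libraries cannot give a p below 0.333. Genes named from the list of 75 were those called and the 3 highest per role in mutant mesenchyme or ectoderm, of which examples are given. Bambi, Frzb and Wnt7b belong to these. Intervals cover counting error only. Gene positions are from GENCODE vM21. DESeq2 1.42.0, other filters, gates, depths and spreads were tried as alternatives.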

Additional observations from a re-analysis of the deposited data

Results flagged for a closer look

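The fitted mutant effect on Wnt3 differed between mesenchyme and ectoderm by 2.76 on the log2 scale (edgeR interaction term, SE 0.60, adjusted p = 0.000636). Wnt3 lay under the limit of 5 CPM in mesenchyme and entered the fit only through its ectoderm level, so this p supports no difference between the tissues. Its mesenchyme counts were 40 UMIs in mutant 1, 48 UMIs in mutant 2 and 4 UMIs in the control, and its ectoderm counts were 690 and 422 UMIs in the mutants and 851 UMIs in the control. Of the mesenchyme UMIs of the mutants, 34 and 41 lay in p53-high cells.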

How the results depend on the processing

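Genes called in mesenchyme numbered 145, against 59 with DESeq2, 340 with a mean of at least 1 CPM, 585 without a filter on low counts, 41 after thinning cells to equal depth, 0 with the prior degrees of freedom of the ectoderm fit and 57 without p53-high cells. The 1 member called there became 0 with DESeq2, without TMM factors, after thinning, with the ectoderm prior and without p53-high cells. It became 2 without a filter (Wnt3 and Nkd1) and with a stricter cell filter (Dkk1 and Nkd1), and clusters in place of the gate called Dkk2 and not Nkd1. The Nkd1 difference stayed between -0.93 and -1.06 where its call was lost, with adjusted p of 0.149 with DESeq2, 0.0580 without TMM factors, 0.106 with clusters, 0.579 after thinning, 1 with the ectoderm prior and 0.0775 without p53-high cells. In ectoderm 0 genes were called, against 32 with DESeq2, 599 without a filter and 995 with a spread shared by all genes, a setting chosen after seeing the data. Either of the last 2 settings called 4 members lower there (Wnt6, Wnt7a, Dkk1 and Nkd1). Endothelium had 0 calls, against 310 with DESeq2 and 1011 with a shared spread, and flank 0, against 3 and 34. The interaction term was called in 176 genes, against 33 with DESeq2 and 2 with clusters. No called result changed sign, but differences that were not called did. Without TMM factors those of Wnt3 and Lef1 in ectoderm became 0.050 and 0.029. After thinning, those of Wnt3 and Axin2 in ectoderm became 0.081 and 0.049, and those of Wnt2 and Wnt5a in flank became -0.20 and 0.29. Thinning also moved Dkk1 in mesenchyme to -0.06 and Wnt6 in flank to -0.55. Without mutant 2, Wnt2 in mesenchyme became 0.22, Wnt6 in ectoderm 0.05 and Nkd1 in endothelium 0.12. Without mutant 1, Wnt3 in ectoderm became 0.07, and in flank Wnt5a became 0.51, Axin2 0.38 and Nkd1 0.19. The Dkk2 difference in flank was 0.72 without mutant 1 and -2.61 without mutant 2, against -0.15 with both. The causes were not tested. Clusters could not replace the gate in flank, where 1 library had no such cell. No paired analysis was possible because the control library carries no replicate number. With 1 control, few calls, or none, do not show that a gene was unchanged.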

Other observations

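Myogenic and coelomic cells lay outside the 4 classes compared, and their values are given without a test. Myogenic cells numbered 206 in mutant 1, 436 in mutant 2 and 63 in the control, and the control cells had a median of only 1883 UMIs. In them Dkk2 had 92.1 and 106 CPM in the mutants, against 48.7 CPM in the control from 50 UMIs. Nkd1 had 76.1 and 47.2 CPM in the mutants, against 76.0 CPM in the control, and Lef1 had 440 and 358 CPM, against 463 CPM in the control. Coelomic cells numbered 72 and 156 in the mutants and 84 in the control. There Wnt6 had 21.5 and 70.2 CPM in the mutants, against 141 CPM in the control, and Dkk2 had 61.7 and 49.2 CPM, against 189 CPM in the control. Nkd1 in these cells had 22.6 and 13.3 CPM in the mutants, against 50.9 CPM in the control, so it lay below the control in both mutants there as well.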
